A study of Mus musculus with 16 samples.

Results

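The 5 genes of triglyceride storage and cholesterol handling described here, Dgat1, Hilpda, Abcg1, Pmvk and Insig1, were followed between evening and morning in eosinophils of the mouse duodenum. They were picked by symbol as genes that the authors' comparisons of ZT15 with ZT3 had already called, so their listing, direction and size in these contrasts describe the choice and are given without a test. All 5 were among the 1340 genes in the table for CD11c-low cells, and 3 (Dgat1, Abcg1 and Pmvk) were also among the 172 in the table for CD11c-high cells, out of 1413 different genes in all. The 16 libraries, from 1000 sorted cells each, make 4 groups of 4: CD11c-high cells at ZT15 and at ZT3, and CD11c-low cells at ZT15 and at ZT3. ZT is zeitgeber time, in hours after lights on, and the sample titles call ZT15 PM and ZT3 AM. CD11c is the integrin alpha chain encoded by Itgax. All groups were labelled as eosinophils of the intestinal lamina propria, the connective tissue under the gut epithelium. The labels give no strain, genotype, age or treatment other than time for any group, and do not say whether libraries of a group came from separate animals. The study's title sets the comparison in the circadian regulation of duodenal Treg cells by gut nerves and eosinophils.

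Cells keep surplus fatty acids as triglyceride inside lipid droplets. DGAT1, at the endoplasmic reticulum, joins a fatty acid to diacylglycerol in the last step of that synthesis, and HILPDA, a small droplet protein known as a hypoxia-induced gene product, holds back the lipase that starts triglyceride breakdown. Cholesterol is made through the mevalonate pathway, in which phosphomevalonate kinase (Pmvk) carries out a phosphorylation. INSIG1 retains the SCAP-SREBP complex in the endoplasmic reticulum while sterols are plentiful and so restrains sterol synthesis, and the transporter ABCG1 passes cholesterol out of the cell and is induced by oxysterol-sensing liver X receptors.

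Hilpda and Insig1 were the members listed for CD11c-low cells alone, and they moved in opposite directions there, so a 300-base window around a transcription start of each is shown as context for the values below. The windows are from RefSeq on build GRCm38.p6, on the + strand, run from 250 bases before to 50 bases after the start, and lie at chr6:29272376-29272675 (Hilpda) and chr5:28071162-28071461 (Insig1). Capitals mark the letters that matched any of the motifs searched.
Hilpda: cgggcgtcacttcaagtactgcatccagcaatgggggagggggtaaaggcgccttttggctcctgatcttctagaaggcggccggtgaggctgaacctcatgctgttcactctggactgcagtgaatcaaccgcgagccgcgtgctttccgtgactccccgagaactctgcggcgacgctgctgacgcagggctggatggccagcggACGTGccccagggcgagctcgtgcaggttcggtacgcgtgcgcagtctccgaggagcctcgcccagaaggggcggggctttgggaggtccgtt
Insig1: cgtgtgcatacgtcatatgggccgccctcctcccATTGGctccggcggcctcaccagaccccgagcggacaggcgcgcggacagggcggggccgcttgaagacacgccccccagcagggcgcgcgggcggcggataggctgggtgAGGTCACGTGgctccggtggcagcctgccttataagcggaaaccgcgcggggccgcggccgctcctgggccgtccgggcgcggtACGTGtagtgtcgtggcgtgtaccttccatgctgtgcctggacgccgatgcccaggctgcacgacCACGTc
The Insig1 window held the E-box letters CACGTG, known as the site of clock factors and of other basic helix-loop-helix proteins, from position -101, counted from the start. They overlapped the nuclear receptor half-site AGGTCA from position -105. Of 32851 promoter windows of the same length, 7.15% held CACGTG and 16.3% held AGGTCA, on either strand. The shorter hypoxia response core was searched only in its form ACGTG, which lies inside every CACGTG and was found in 19.6% of windows. ACGTG stood at position -43 in the Hilpda window and, outside the E-box, at -21 and at 45 in the Insig1 window. The form GCGTG was not searched, so it is neither marked nor counted. CCAAT, present in 37.4% of windows, was found at -216 in the Insig1 window, as its reverse complement. The sterol regulatory element core TCACCCCAC (0.551% of windows), the D-box TTATGTAA (0.938%) and the cAMP response element TGACGTCA (1.79%) matched in neither window. RefSeq windows were matched for 3 of the 5 genes. A further Hilpda window held none of these motifs, and of the Pmvk windows, 1 held CCAAT at -136 and the other none. These matches describe letters only, and whether any of them is bound was not assessed.

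The deposited tables hold the authors' comparison for each subset and no value of a single library, so levels by library are not analysed here. Each gene has a mean normalised count over both times and an s-value. It also has a log2 fold change of ZT15 over ZT3 with its standard deviation (written ± below). The fold changes are taken to be shrunken and the standard deviations to be posterior ones, since s-values come with shrunken estimates. The s-value estimates how many signs are wrong, as a share, in the set made of a gene and all genes ranked above it, and every listed gene had a value under 0.05. A positive fold change means more transcript at ZT15. In RNA from sorted pools, more transcript per cell and a different mix of cells within the gate cannot be told apart.

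Dgat1 (ENSMUSG00000022555.13), of triglyceride synthesis, rose at ZT15 in both subsets. Its log2 fold change in the authors' deposited tables was 0.32 ± 0.17 in CD11c-high cells and 0.87 ± 0.11 in CD11c-low cells. These are folds of 1.25 and 1.83, and within 1 standard deviation they run over 1.12 to 1.40 in CD11c-high cells and over 1.70 to 1.97 in CD11c-low cells. The s-value was 0.00293 in CD11c-high cells, at rank 21 of 172, and 1.01e-15 in CD11c-low cells, at rank 1 of 1340, in the authors' deposited tables. By size of change, Dgat1 stood only at rank 8 of the 651 genes that rose in CD11c-low cells, counted over genes whose mean normalised count reached 50, without immunoglobulin segments or predicted genes. Its first place by s-value went with a small standard deviation, 0.110 for Dgat1 against a median of 0.222 and a minimum of 0.103 over that table.

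Hilpda (ENSMUSG00000043421.9), the lipid droplet gene, was listed for CD11c-low cells and, per the authors' deposited table, rose there by 0.51 ± 0.20 in log2, a fold of 1.42 with an s-value of 0.000984. By size it was at rank 119 of the 651 genes that rose. For CD11c-high cells it was not listed, so its change in them was not analysed here. No statement that it differed between the subsets follows from this.

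Abcg1 (ENSMUSG00000024030.8), the cholesterol exporter gene, rose in both subsets. In the authors' deposited tables the log2 fold change was 0.55 ± 0.24 in CD11c-high cells (fold 1.46, s-value 0.000295) and 0.44 ± 0.22 in CD11c-low cells (fold 1.35, s-value 0.00538). It was the member with the largest change in CD11c-high cells, at rank 3 of 81 genes that rose, and the member with the smallest rise in CD11c-low cells, at rank 191 of 651.

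Pmvk (ENSMUSG00000027952.17), of the mevalonate pathway, also rose in both. The authors' deposited tables gave it 0.45 ± 0.25 in CD11c-high cells (fold 1.37, s-value 0.00326) and 0.77 ± 0.19 in CD11c-low cells (fold 1.71, s-value 1.97e-06). It stood at rank 8 of 81 genes by size of rise in CD11c-high cells and at rank 16 of 651 in CD11c-low cells.

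Insig1 (ENSMUSG00000045294.12), which encodes the sterol-dependent brake, was the member that fell. Per the authors' deposited table, its log2 fold change in CD11c-low cells was -0.47 ± 0.24, a fold of 0.724, with an s-value of 0.00556, the largest s-value of any member. By size it was at rank 174 of 575 genes that fell. It was not listed for CD11c-high cells.

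**Figure D1:**
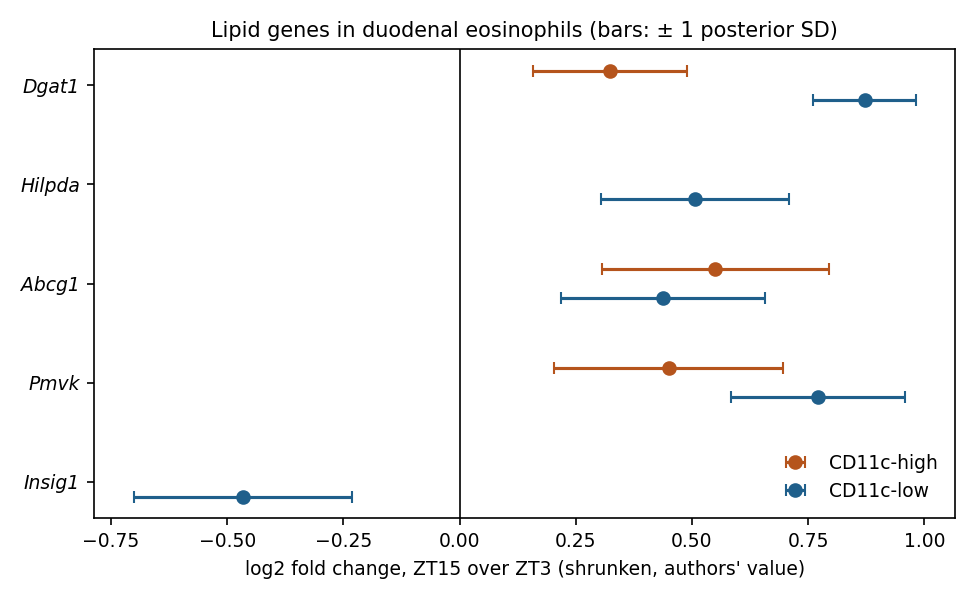
The points are the authors' log2 fold changes of ZT15 over ZT3 (x axis), taken to be shrunken, for each gene (y axis). CD11c-high cells are orange (upper) and CD11c-low cells blue (lower), with bars of 1 posterior standard deviation. Dgat1 in CD11c-low cells, at 0.87 ± 0.11, has the shortest bar, and Insig1, at -0.47 ± 0.24, is the point left of 0.

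In CD11c-high cells 3 of 3 listed members were higher at ZT15, in a table where 54.1% of genes were higher and 45.9% lower. In CD11c-low cells 4 of 5 were higher and 1 lower, where 52.2% of genes were higher and 47.8% lower. The 3 members in both tables were 3 of 3 listed for CD11c-high cells, where 57.6% of genes were shared with the other table, and 3 of 5 listed for CD11c-low cells, where 7.39% were. All 8 listed values had an s-value under 0.01, as did 22.1% of genes listed for CD11c-high and 38.7% of those listed for CD11c-low cells. Since the members were taken from these contrasts, nothing is read from those counts. The median size of the listed increases was 0.28 in the CD11c-high subset and 0.36 in CD11c-low cells, and that of the listed decreases in CD11c-low cells was -0.39. Every listed value of a member was larger in size than the median of its table in its direction. A member's own false sign rate, recovered from successive s-values, ran from 0.00269 (Abcg1) to 0.0102 (Pmvk) in CD11c-high cells and from 1.01e-15 (Dgat1) to 0.0175 (Insig1) in CD11c-low cells. All were under 0.05, as were 45.3% of genes listed for CD11c-high and 52.7% of those listed for CD11c-low cells.

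**Figure D2:**
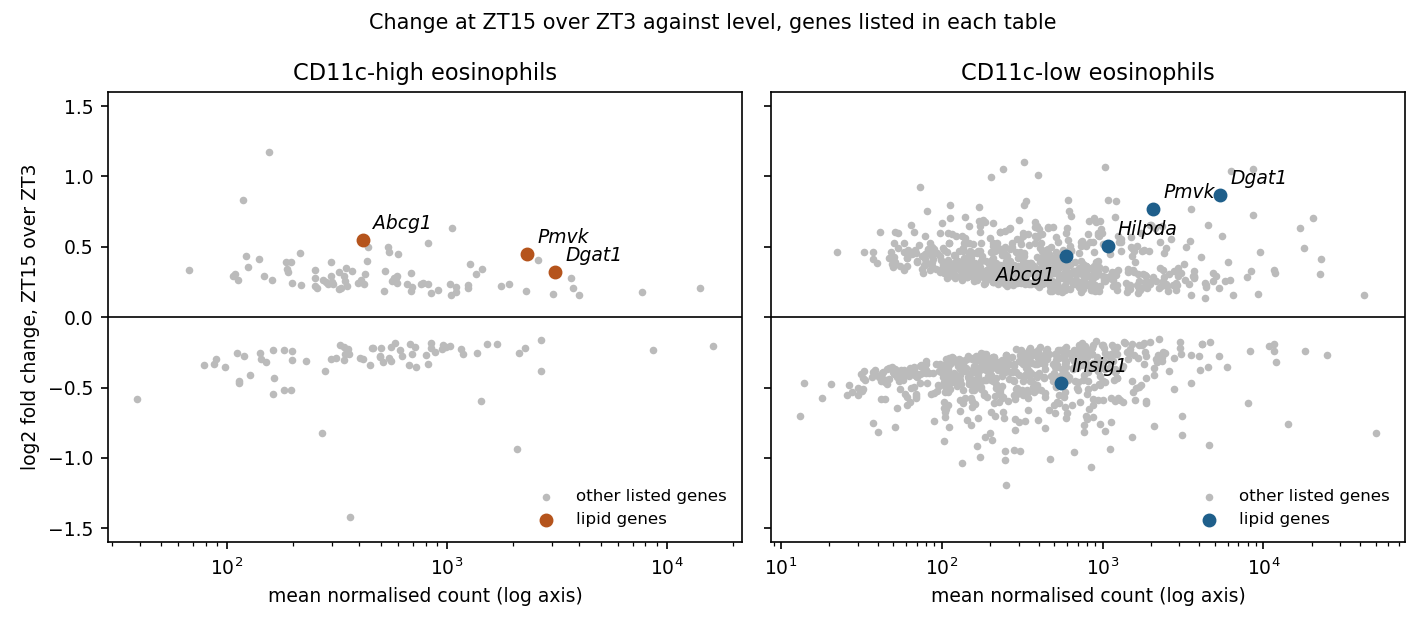
Each point is a listed gene, with its mean normalised count on a log x axis and its log2 fold change of ZT15 over ZT3 on the y axis, for CD11c-high (left) and CD11c-low cells (right). Members are coloured and named, and 11 genes (left) and 19 genes (right) beyond 1.6 in size are not drawn. Dgat1 and Pmvk lie to the right, at counts of 3091 and 2322 in CD11c-high cells and 5368 and 2067 in CD11c-low cells.

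Per kilobase of the longest protein-coding transcript, Pmvk and Dgat1 had the highest levels of the members. For CD11c-high cells the mean normalised count of the authors' deposited table, divided by length, came to 1944 per kilobase for Pmvk, 1637 for Dgat1 and 70.9 for Abcg1, beside a median of 127 over the listed genes with a length. For CD11c-low cells it came to 2843 for Dgat1, 1731 for Pmvk, 1093 for Hilpda, 203 for Insig1 and 102 for Abcg1, beside a median of 111. Dgat1 thus led Pmvk in CD11c-low cells and followed it in CD11c-high cells. No standard deviation of these levels is in the tables, so neighbours in either order are not shown to differ. The longest transcript of Abcg1 has 5832 bases and the median one 1142. By the median length, a choice made after seeing the data, Abcg1 came to 362 per kilobase in CD11c-high cells and 522 in CD11c-low cells, which is above the 203 of Insig1 in CD11c-low cells.

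The subsets were next set side by side for the 3 members in both tables. The difference of log2 fold changes, CD11c-high minus CD11c-low, was -0.55 ± 0.20 for Dgat1, -0.32 ± 0.31 for Pmvk and 0.11 ± 0.33 for Abcg1, with standard deviations combined from the authors' deposited tables. That combination takes the subsets as independent, whereas the sample titles give CD11c-high and CD11c-low libraries of a time the same numbers, and whether these mark shared animals is not stated. Relative to its standard deviation, that of Dgat1 was at rank 3 of 97 shared genes, immunoglobulin segments left out, whereas Pmvk stood at rank 34 and Abcg1 at rank 62. By the size of the difference alone, Dgat1 stood only at rank 13, Pmvk at rank 29 and Abcg1 at rank 60. The difference was not tested, because both contrasts had served to choose the members. The 2 tables are taken to have been shrunken separately, by an amount that is not known. Of the 97 shared genes, 79 had the larger change in CD11c-low cells. The size of change in CD11c-high cells divided by that in CD11c-low cells was 0.372 for Dgat1, 0.584 for Pmvk and 1.26 for Abcg1, against a median of 0.677 over the shared genes.

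**Figure D3:**
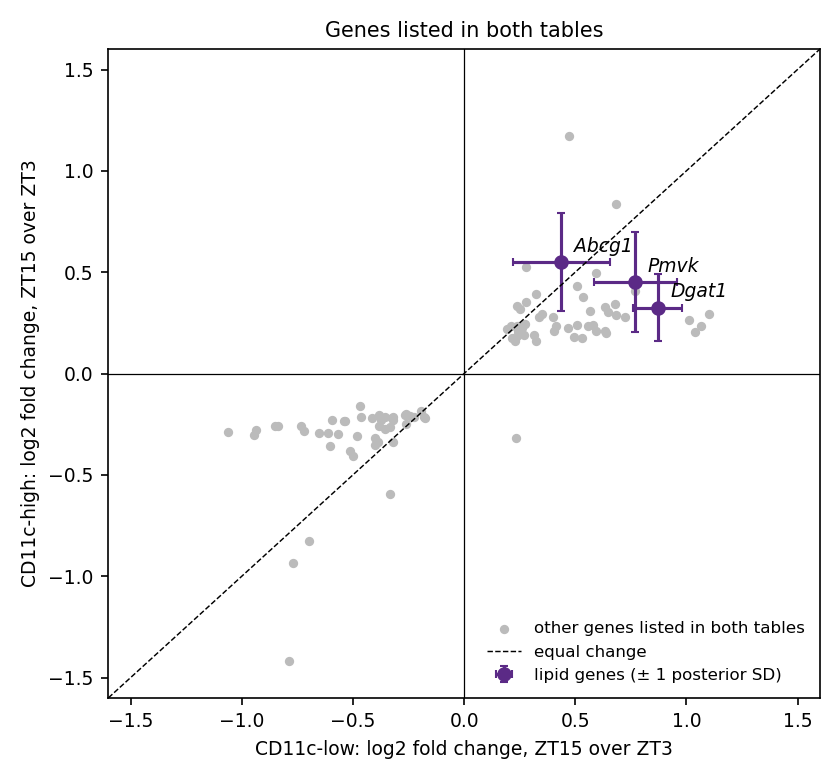
Each point is 1 of 97 genes listed in both tables, with its log2 fold change of ZT15 over ZT3 in CD11c-low cells on the x axis and in CD11c-high cells on the y axis. Purple points with bars of 1 posterior standard deviation are the members, and the dashed line marks equal change. Dgat1 (0.32 in CD11c-high, 0.87 in CD11c-low) and Pmvk (0.45 in CD11c-high, 0.77 in CD11c-low) lie below the line, and Abcg1 (0.55 in CD11c-high, 0.44 in CD11c-low) just above it.

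Mean normalised counts of the same members were also set side by side. The ratio of mean normalised counts, CD11c-high to CD11c-low, was 1.12 for Pmvk, 0.694 for Abcg1 and 0.576 for Dgat1 in the authors' deposited tables, and its median over the 97 shared genes was 0.732 (quartiles 0.604 and 0.875). Pmvk stood at rank 7 of 97 from the top, Abcg1 at rank 58 and Dgat1 at rank 80. The tables were normalised separately, so these ratios are placed only against other genes and do not measure a level between subsets.

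Genes with the most similar pair of changes were found among 92 shared genes, predicted genes and immunoglobulin segments left out, by the larger of the absolute differences in the 2 subsets. Nearest to Pmvk were the AP-1 subunit gene Fos, at a distance of 0.05 in log2, Dgat1, at 0.13, and Fndc5, at 0.14. Fos, Pmvk and Gpr183 were nearest to Dgat1, at 0.10, 0.13 and 0.14. Fos had log2 fold changes of 0.41 ± 0.18 in the CD11c-high subset and 0.77 ± 0.14 in CD11c-low cells, per the authors' deposited tables. Nearest to Abcg1 were Emb (0.43 ± 0.35 in the CD11c-high subset and 0.51 ± 0.25 in CD11c-low cells), Snx20 (0.50 ± 0.27 and 0.59 ± 0.19 in that order) and St13 (0.53 ± 0.27 and 0.28 ± 0.21 in that order), in the authors' deposited tables. Such likeness rests on 2 values per gene.

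The wider pathways were described from 8 lists of lipid genes, which hold 170 different genes with the members. Of these, 8 were listed in the CD11c-high table, 6 higher and 2 lower at ZT15, and 21 in the CD11c-low table, 16 higher and 5 lower. With the members left out, 3 were higher and 2 lower in CD11c-high cells (median log2 fold change 0.23, against 0.19 over the whole table). In CD11c-low cells 12 were higher and 4 lower without the members (median 0.38, against 0.21 over the whole table). Over all listed genes, 54.1% were higher in CD11c-high cells and 52.2% in CD11c-low cells. A median over rises and falls together depends on their shares, and the lists were written with earlier results of these data known. Nothing is therefore read from these counts or medians. Because only called genes are listed, the counts do not show whether lipid genes were called more often than others. The other lipid genes were not called or not tested, and their values were not analysed here. Some values named below had an own false sign rate above 0.05, unlike the members. In CD11c-low cells these were Lpin2 (0.0972), Agpat5 (0.0522), Abhd5 (0.0804), Mgll (0.0938), Cyp51 (0.0710), Srebf1 (0.0601), Scap (0.0695), Syvn1 (0.0987) and Kdm3a (0.0930). In CD11c-high cells they were Lpin2 (0.0656), Elovl5 (0.0794) and Gpr183 (0.0714). Every other value named from the lipid and hypoxia lists was under 0.05.

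In triglyceride synthesis and lipid droplets, 2 of 35 genes were listed for CD11c-high cells, both higher, and 4 for CD11c-low cells, 3 higher and 1 lower. The higher genes include the members Dgat1, in both subsets, and Hilpda, in CD11c-low cells, which were chosen from these contrasts. Lpin2, a lipin that makes the diacylglycerol used by DGAT1, rose by 0.23 ± 0.18 in the CD11c-high subset and 0.24 ± 0.19 in CD11c-low cells, and Agpat5, an acyltransferase of an earlier step, fell by 0.38 ± 0.25 in CD11c-low cells, per the authors' deposited tables. The Lpin2 values of the subsets lay within 1 standard deviation of each other. In triglyceride breakdown, 1 of 12 genes was listed for CD11c-high cells. It was Pnpla2, which encodes the adipose triglyceride lipase that HILPDA inhibits, and it fell (-0.45 ± 0.32, s-value 0.0130) in the authors' deposited table. In CD11c-low cells the list had 2 higher genes, Abhd5, the coactivator of that lipase (0.46 ± 0.36, at a mean normalised count of 32.8), and the monoglyceride lipase gene Mgll (0.24 ± 0.19), in the authors' deposited table.

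Of 22 genes for the mevalonate pathway and sterol synthesis, Pmvk alone was listed for CD11c-high cells. For CD11c-low cells 2 were higher, Pmvk among them, and 1 lower. Cyp51, the lanosterol demethylase gene, rose by 0.26 ± 0.18, while Lbr, whose product is both a sterol reductase and the lamin B receptor of the nuclear envelope, fell by 0.96 ± 0.27 (s-value 2.82e-05), in the authors' deposited table. Pmvk thus had the largest rise of the listed pathway genes in these cells, and Lbr the only fall.

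Of 17 sterol sensing genes, 2 were higher and 2 lower in CD11c-low cells, Insig1 among the lower, and none was listed for CD11c-high cells. Insig1 fell while Scap, which encodes the escort that INSIG1 retains, rose by 0.38 ± 0.28 and Srebf1, which encodes the transcription factor precursor bound by that escort, rose by 0.53 ± 0.38 with a mean normalised count of 50.8, per the authors' deposited table. Syvn1, a ubiquitin ligase gene of the endoplasmic reticulum, fell by 0.35 ± 0.29 there, per the authors' deposited table. Of those 4 genes Insig1 had the smallest s-value, and the other s-values ran from 0.0220 (Srebf1) to 0.0399 (Syvn1).

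For cholesterol export, uptake and movement, 2 of 32 genes were listed for CD11c-high cells, both higher, and 5 for CD11c-low cells, 4 higher and 1 lower. The member Abcg1 is counted among the higher genes of each subset. Beside Abcg1, the sterol carrier gene Stard4 rose by 0.38 ± 0.21 and Tspo, a mitochondrial outer membrane protein gene, by 0.38 ± 0.21 in CD11c-low cells, and the oxysterol-binding protein family gene Osbpl8 fell by 0.48 ± 0.30, in the authors' deposited table. Gpr183, the receptor for an oxysterol that attracts immune cells, rose in both subsets, by 0.26 ± 0.22 in the CD11c-high subset and 1.01 ± 0.22 in CD11c-low cells, per the authors' deposited tables. It was the listed gene of 6 for oxysterols, and its rise in CD11c-low cells was larger than that of any member.

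Of 19 genes for fatty acid synthesis and desaturation, the elongase gene Elovl5 fell in CD11c-high cells (-0.22 ± 0.18), and none was listed for CD11c-low cells, per the authors' deposited tables. Of 30 genes for fatty acid uptake and oxidation, none was listed for CD11c-high cells and 2 rose in CD11c-low cells, the enoyl-CoA isomerase gene Eci2 (0.67 ± 0.26) and the electron transfer gene Etfa (0.44 ± 0.22), in the authors' deposited table. Among 22 targets of hypoxia-inducible factors, a list that Hilpda belongs to, 2 rose and 2 fell in CD11c-low cells. Aldoa, a glycolytic enzyme gene, rose by 0.54 ± 0.17, and Slc2a3, a glucose transporter gene, and the demethylase gene Kdm3a fell by 0.66 ± 0.20 and 0.31 ± 0.24, in the authors' deposited table. The listed hypoxia targets, Hilpda included, moved both ways in CD11c-low cells, where 52.2% of all listed genes were higher. None was listed for CD11c-high cells, and a part of hypoxia in these changes was not tested.

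**Figure D4:**
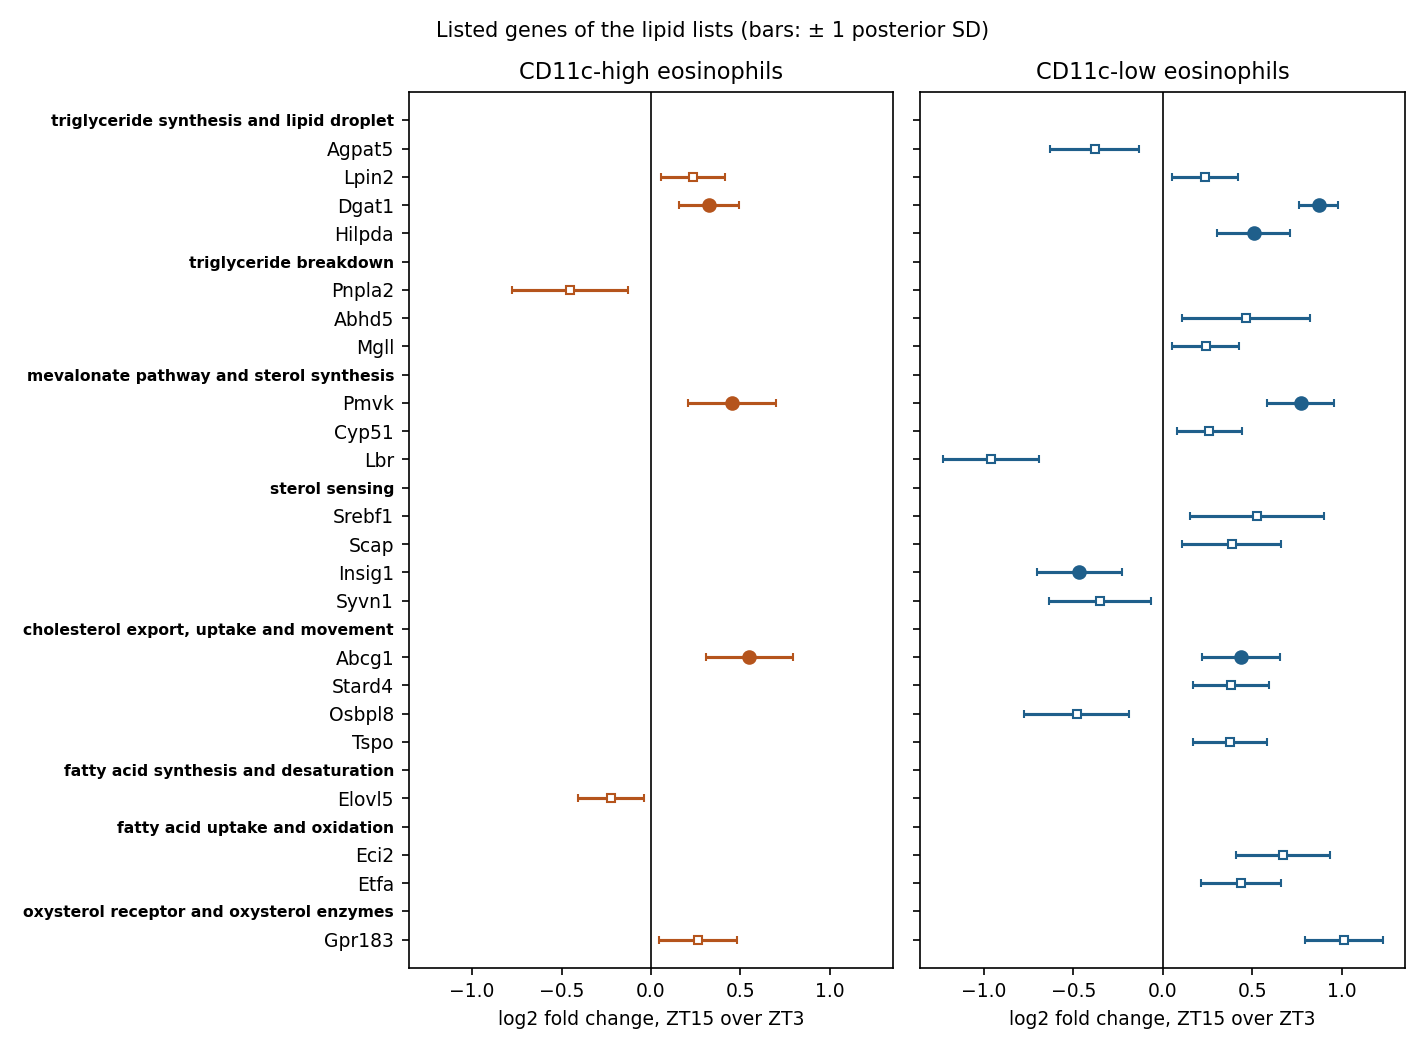
The log2 fold changes of ZT15 over ZT3 (x axes) are drawn for 22 of the listed lipid genes, grouped by role (y axis), in CD11c-high (left) and CD11c-low cells (right), with bars of 1 posterior standard deviation. Filled circles are the 5 members and open squares other genes of the lists, and an empty row means not listed. Points lie on both sides of 0 in each panel, from -0.45 (Pnpla2) to 0.55 (Abcg1) on the left and from -0.96 (Lbr) to 1.01 (Gpr183) on the right.

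Markers of other cells moved in the same comparison. Of 18 epithelial markers, among them the fat-absorbing enterocyte genes Fabp1, Fabp2, Apoa4 and Mttp, the keratin gene Krt18 was listed for CD11c-low cells and fell by 0.35 ± 0.24 (value from the authors' deposited table), and none was listed for CD11c-high cells. Of 16 macrophage and dendritic cell markers, 1 rose (Cd68, 0.52 ± 0.30) and 2 fell (Cd74, -0.49 ± 0.33, and Adgre1, which eosinophils also express, -0.29 ± 0.14) in CD11c-low cells, per the authors' deposited table. Of 12 B and plasma cell markers, Bank1 (0.32 ± 0.15) and Ighm (0.24 ± 0.20) rose there, per the authors' deposited table. Hdc, of mast cells, basophils and other granulocytes, rose by 0.24 ± 0.19 in the CD11c-high subset and 0.58 ± 0.20 in CD11c-low cells, per the authors' deposited tables. Gzma, of T and NK cells, was higher at ZT15 in CD11c-low cells, with a fitted log2 change of 20.99 ± 3.33 (s-value 3.83e-07) and a mean normalised count of 30.4 per the authors' deposited table, and no fold is read from a fitted value of that size. Immunoglobulin segments, taken as symbols that begin like those of V, D or J segments, made up 9 of the 172 genes listed for CD11c-high cells. For CD11c-low cells they made up 14 of 1340. Without them, the higher genes went from 93 to 86 and the lower from 79 to 77 in CD11c-high cells. In CD11c-low cells the higher genes went from 700 to 692 and the lower from 640 to 634. The own false sign rate was above 0.05 for Krt18 (0.0624), Cd74 (0.0516) and Ighm (0.113) in CD11c-low cells. It was also above 0.05 for Hdc in CD11c-high cells (0.0672), and under it for the other marker values named. The part of these other cells in the changes of lipid genes was not tested. Of 17 eosinophil markers, 5 were listed for CD11c-low cells, 4 higher and 1 lower, where 52.2% of all listed genes were higher. Siglecf (0.23 ± 0.13), Alox15 (0.26 ± 0.14), Csf2rb (0.33 ± 0.16) and Itgam (0.57 ± 0.17) rose and Adgre1 (-0.29 ± 0.14) fell in the authors' deposited table. The Itgam value lies above those of Hilpda and Abcg1 and below those of Dgat1 and Pmvk, and the other 3 lie below all of these. Siglecf and Alox15 had mean normalised counts of 1633 and 4887 there, per the authors' deposited table. Epx, Ccr3 and Itgax were not among the listed genes, so the label and the CD11c gate could not be checked on them. Csnk1e, a casein kinase gene, was the listed gene of 22 for the clock, with a rise of 0.54 ± 0.15 in CD11c-low cells, per the authors' deposited table, so no clock gene of known phase could check the direction of the tables.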

How the data were processed

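Per the submitters' processing notes, STAR 2.7.10b, DESeq2 1.38.3 and build GRCm39 were used, with no role given for each. For the counting step, annotation, filters and shrinkage method, the sources used here give no name. Per the labels' protocols, sequencing libraries were made with the Nextera XT kit from amplified cDNA of the sorted cells. Per the file headers, each table gives a mean normalised count (a signal averaged over libraries by the authors), a log2 fold change with its error, and an s-value, deposited in place of a p-value. The fold changes the authors deposited are taken to be shrunken, since s-values come with shrunken estimates, and the direction (PM over AM) comes from the tables' names. The depth of each library is unknown, so the part of counting error in the standard deviations cannot be separated. The labels do not say that libraries came from separate animals, so the errors may be technical.

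The members and lists were chosen with earlier results of these data known. No test was run: values were copied, converted to folds, ranked, counted by direction and subtracted between subsets (Python 3.11.15, pandas 2.3.3, NumPy 2.4.6). The false sign rate of each gene was recovered from successive s-values, by a step tested on simulated data. Lengths are those of GENCODE M21, matched for 153 of 172 and 1269 of 1340 genes, and the build there differs from the authors', so no gene coordinates are given other than those of RefSeq windows. Named were the members, up to 6 listed genes per lipid list, up to 4 per other list, and the 3 nearest shared genes per member. Not every gene that this rule takes is reported here by name.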

Additional observations from a re-analysis of the deposited data

How the results depend on the processing

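All 8 listed values of the members kept their call at an s-value under 0.01, at an own false sign rate under 0.05 and at a mean normalised count of at least 50, so the counts of 3 higher in CD11c-high cells and 4 higher and 1 lower in CD11c-low cells did not change. These settings re-threshold the deposited values from which the members were chosen, and the own false sign rate is derived from the s-values. They are therefore no independent support for the calls. At an s-value under 0.01 the lipid lists kept 10 higher and 2 lower genes in CD11c-low cells, and 4 higher and 0 lower in CD11c-high cells. Over the whole tables that threshold left 24 higher and 14 lower genes in CD11c-high cells and 273 higher and 245 lower in CD11c-low cells. Each of these falls comes from the stricter threshold itself. Leaving out immunoglobulin segments left 86 higher and 77 lower genes in CD11c-high cells and 692 and 634 in CD11c-low cells. With median in place of longest transcript lengths, Abcg1 moved above Insig1 in level per kilobase, as given above. Other normalisations, filters and fits without a library could not be run, because the tables hold no values per library. No paired analysis was possible because no column belongs to a single library. Depth per library is unknown, and a gene missing from a table may be unchanged, too low or untested.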
